A study of Homo sapiens with 8 samples.

Results

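Interferon-stimulated genes are the genes that cells switch on when type I interferon reaches them, and most of their products act against viruses. Interferon binds a receptor made of IFNAR1 and IFNAR2, whose kinases activate STAT proteins. STAT2 then joins IRF9 and another STAT protein and binds a short DNA element in the promoters of these genes, called the interferon-stimulated response element. In tumor cells a part of this gene set is often active without added interferon. The 45 genes described here were listed by symbol, with no threshold on their values, out of 58051 genes in the count tables. They comprise 2 receptor genes (*IFNAR1*, *IFNAR2*), 4 factor genes (*STAT2*, *IRF1*, *IRF7*, *IRF9*) and 39 effector genes. Of these 45 genes, 40 passed the filter on low counts and were among the 17671 genes tested.

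RNA was sequenced from 4 wild-type lines of A375, a human melanoma cell line, named WT1 to WT4. Each line was kept for 12 h in DMEM with 10% fetal bovine serum (FBS) or in DMEM with 0% FBS, which gave 4 serum and 4 serum-free libraries. All groups share the wild-type *NECTIN1* genotype that the study compared with knockout lines, which were not analysed here. How the 4 wild-type lines were derived is not given in the sources used here, and the files of WT4 carry another line name than its label. Each line gave 1 library per condition. The *P* values below from the model without the line rest on the spread between lines and treat both libraries of a line as independent. Those from the model with the line rest on how far the response to serum varied between lines. None rests on the spread between repeat cultures of a line. The labels name no treatment with interferon.

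The libraries held 29759279 to 73341551 counts on genes. Reads that aligned to several places are not counted. They are given as a share of themselves, the counts on genes and the reads that could not be given to a single gene. This share was 22.7% in the WT1 serum library and 16.8% in the WT2 serum library, against 5.73% to 10.1% in the other 6. Of 15 melanoma and neural crest markers, 12 passed the filter, led by *VIM*, *AXL* and *CSPG4*, and *SOX10* was at 0 counts in every library. Of 13 blood cell markers, 5 were at 0 in every library. The blood list summed to between 3.13 and 6.94 CPM (read counts scaled to library size) with serum and to between 4.16 and 8.76 CPM without, mostly from *LYZ*. The melanoma list summed to between 2760 and 2988 CPM with serum and to between 2485 and 2772 CPM without.

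The response element was looked for in RefSeq promoter windows of GRCh38.p14, each running from 250 bases before to 50 bases after an annotated gene start. Its 10-letter core was written as GAAANNGAAA and searched on both strands, where the opposite strand reads TTTCNNTTTC. Windows were at hand for 36 of the 45 genes, and 23 of these (63.9%) held at least 1 match, against 4.38% of 27305 genes with a window. At least 2 matches within 1 window were found for 14 of the 36 genes, against 85 of the 27305, with overlapping matches counted apart. All 23 were effectors, out of 32 effectors with a window, and none of the 4 receptor and factor genes with a window (*IFNAR1*, *STAT2*, *IRF1*, *IRF9*) held a match. The 7 stretches below show the element in genes that rose (the first 4), in 2 well-known targets that did not pass the test below and in the 1 gene that fell. They are written 5′ to 3′ along the gene's strand, with matches in capitals.

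IFIT1: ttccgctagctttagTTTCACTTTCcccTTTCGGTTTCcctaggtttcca
IFIT3: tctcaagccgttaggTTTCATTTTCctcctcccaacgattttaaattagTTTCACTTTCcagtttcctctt
PARP14: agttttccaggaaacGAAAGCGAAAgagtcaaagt
PARP9: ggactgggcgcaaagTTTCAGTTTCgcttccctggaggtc
ISG15: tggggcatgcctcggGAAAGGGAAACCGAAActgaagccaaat
IFI6: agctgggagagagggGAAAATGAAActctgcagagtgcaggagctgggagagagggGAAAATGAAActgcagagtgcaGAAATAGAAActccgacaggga
EIF2AK2: gaaggcggagtccaagggGAAAACGAAAct

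The *IFIT1* stretch lies at chr10:89392492-89392541 on the plus strand and holds 2 matches, the nearer ending 94 bases before the gene start. *IFIT3*, at chr10:89327826-89327896 on the plus strand, also has 2. *PARP14*, at chr3:122680795-122680829 on the plus strand, has 1 match in this window. *PARP9*, at chr3:122564317-122564356 on the minus strand, has 1, and the same genomic bases are the match in the *DTX3L* window, since these neighbors start back to back. In *ISG15*, at chr1:1013369-1013411 on the plus strand, the capitals are 2 matches that overlap. *IFI6*, at chr1:27672264-27672363 on the minus strand, has 3, and *EIF2AK2*, at chr2:37156975-37157004 on the minus strand, has 1 that spans the start. A match describes the sequence and is no evidence of binding in these cells.

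**Figure D1:**
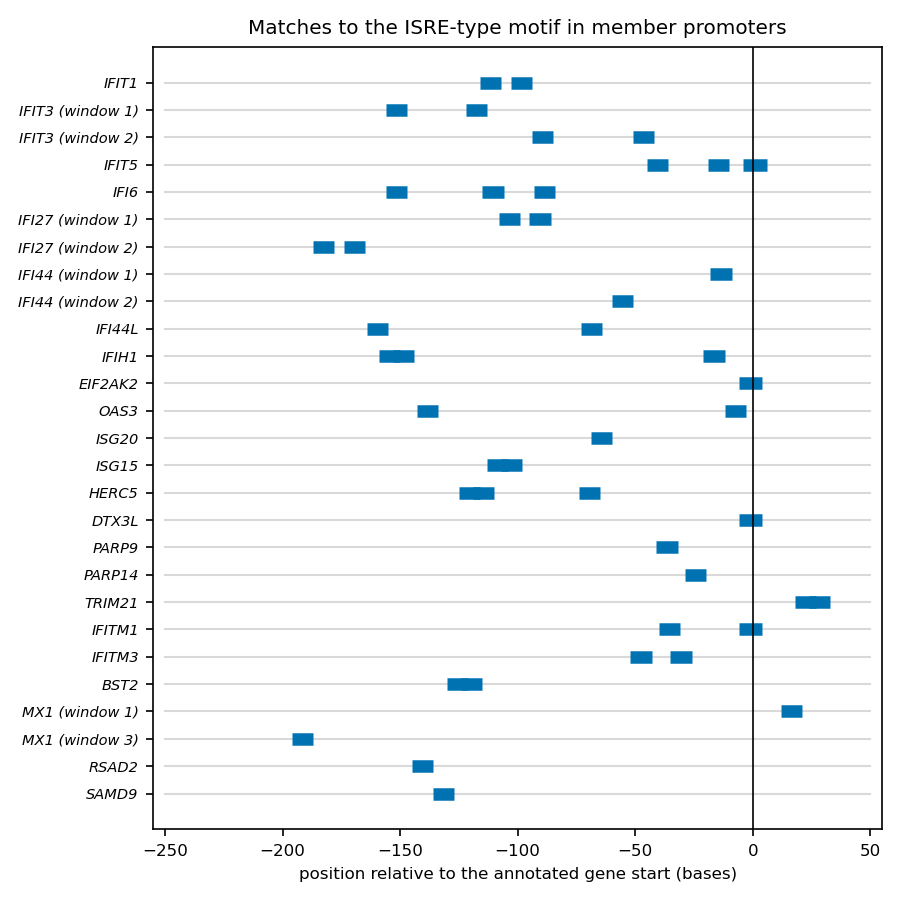
Positions of GAAANNGAAA matches on either strand in the promoter windows of the interferon-stimulated genes that held any. The x axis is the distance in bases from the annotated gene start, each grey line is 1 window, and each block is 1 match. Matches sit from 196 bases before the start (*MX1*, window 3) to 33 bases after it (*TRIM21*).

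A second element, bound by STAT dimers, was searched as TTCNNNGAA, which reads the same on both strands. It was in the windows of 9 of 36 genes (25%), against 9.38% of all genes with a window, and these included *IRF1* and *IRF9*. The 20 tested genes with a GAAANNGAAA match had a median log2 fold change (serum-free against serum) of 0.39, the 12 with a window and no match had 0.32, and the 8 without a window had 0.23. By the test described next, 5 of those 20 rose and 1 fell, and 2 of those 12 rose, where 11.1% of all genes rose and 14% fell. With the line as a block, 12 and 7 rose and 1 of each fell, where 23.2% of all genes rose and 22.4% fell.

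Serum-free libraries were then compared with serum libraries with edgeR over all 17671 genes, at a Benjamini-Hochberg adjusted *P* of 0.05. *STAT2* and 7 effector genes rose without serum, *EIF2AK2* fell, and 31 members did not pass. The 8 genes that rose were *STAT2*, *IFIT1*, *IFIT2*, *IFIT3*, *DTX3L*, *PARP9*, *PARP14* and *SP100*, which is 20% of the 40 tested members against 11.1% of all genes. The single gene that fell is 2.5% of the members against 14% of all genes. The members' median log2 fold change was 0.32 and that of all genes tested was 0.033. A log2 fold change above 0 was found for 34 of the 40 members, against 53.4% of all genes. In bulk RNA, fewer cells that express a gene and less RNA per cell cannot be told apart.

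Each line has a serum and a serum-free library, and adding the line as a block to the model changed many calls. With this replicate block, 23 members rose and 2 (*EIF2AK2* and *OAS1*) fell, against 23.2% and 22.4% of all genes. Taken line by line from WT1 to WT4, serum-free CPM exceeded serum CPM for 33, 34, 32 and 30 of the 40 members, with median log2 differences of 0.35, 0.30, 0.37 and 0.26. Over all genes tested, the same shares were 51.4%, 52.7%, 51.2% and 53.8%, with medians of 0.020, 0.028, 0.016 and 0.044. All 4 lines were higher without serum for 25 members (28.8% of all genes) and lower for 4 (26.6% of all genes). The 4 were *EIF2AK2*, *ADAR*, *OAS1* and *OAS3*. Serum-free values lay above every serum value for 10 members, against 12.6% of all genes, and below every serum value for *EIF2AK2* and *ADAR*, against 15% of all genes.

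The count of called genes moved with the libraries kept. Leaving out WT1 and WT2, whose serum libraries had the highest shares of reads with several alignments, left 0 members called by edgeR in either direction, when 0.0733% of all genes were called higher and 0.00564% lower. In that fit, 6 members were higher and 1 lower at an unadjusted *P* under 0.05, the members' median was 0.30, and 33 of 40 had a fold change above 0. Fold changes were also larger for transcripts rich in G and C. Spearman's rho of fold change and GC content was 0.36 over 17425 genes and 0.17 over the 40 members, as a description across genes. The tested members had a median GC content of 45.2%, and all genes tested had 47.9%. With a correction for GC content and the block, 26 members rose and 3 fell, against 21.6% and 24.5% of all genes. Compared with the block alone, *IFNAR2*, *IFI44*, *USP18*, *MX1* and *SAMD9L* joined the higher calls, *ADAR* and *OAS3* joined the lower ones, and *IRF1*, *IRF7* and *OAS1* lost theirs. With upper-quartile scaling, 13 members rose and 1 fell, against 14.2% and 10.4% of all genes, and the share of higher calls among all calls went from 44.1% to 57.6%.

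**Figure D2:**
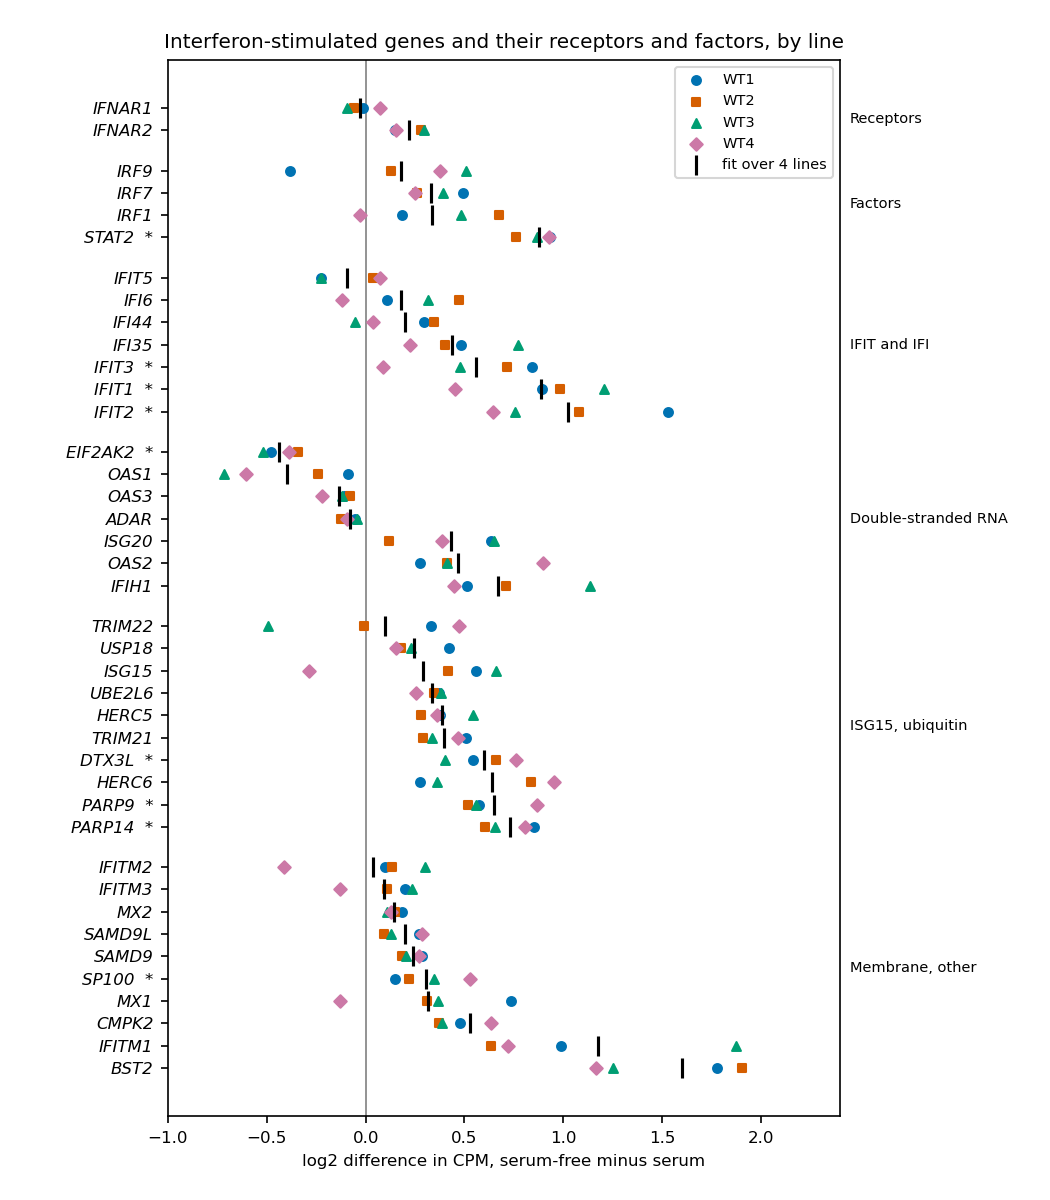
Log2 difference in CPM, serum-free minus serum, for the 40 tested members by role. Each symbol is 1 line, the black bar is the edgeR estimate over the 4 lines, and an asterisk marks an adjusted *P* under 0.05 without the block. Most symbols lie right of 0, and *EIF2AK2*, *OAS1*, *OAS3* and *ADAR* have all 4 left of it.

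Among the receptors and factors, *STAT2*, the factor that carries the interferon signal into the nucleus, was the only one of 6 to pass without the block. *STAT2* (ENSG00000170581, chr12:56341597-56360107) was at 39.5, 40.6, 41.2 and 43.7 CPM in WT1 to WT4 with serum and at 75.6, 68.8, 75.3 and 83.3 CPM without. The groups did not overlap, and WT4 was highest in both. Mean *STAT2* was 41.3 ± 1.78 CPM with serum and 75.7 ± 5.92 CPM without (SD, n = 4). It rose by 0.88 ± 0.073 on the log2 scale (SE, adjusted *P* = 0.000719). It passed in all 12 fits that left out 1 library or 1 line, with adjusted *P* values from 0.00022 to 0.0169.

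*IRF9*, the DNA-binding partner of STAT2, was at 1.03, 0.822, 0.584 and 1.06 CPM with serum and at 0.782, 0.903, 0.848 and 1.39 CPM without. It was lower without serum in WT1 and higher in the other 3 lines, and the groups overlapped (log2 fold change 0.18 ± 0.29, adjusted *P* = 0.693). Its level was thus far under that of *STAT2* per length too, at 0.135 against 4.43 RPKM (CPM per kilobase of exon) with serum. Of its exon bases, 27.2% lie in other genes, and the reads on these may not have been counted.

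*IRF1*, a factor induced by interferon that activates many of the same promoters, was at 18.1, 15.4, 11.8 and 15.7 CPM with serum and at 20.6, 24.5, 16.6 and 15.4 CPM without. WT2 and WT3 moved most, WT4 hardly moved, and the groups overlapped. Its log2 fold change of 0.34 ± 0.17 did not pass (adjusted *P* = 0.176), while the block brought it past the threshold (adjusted *P* = 0.0168). It lost that call with the GC correction added (adjusted *P* = 0.0589). *IRF7*, which drives interferon gene transcription, was at 3.63, 5.55, 2.94 and 8.45 CPM with serum and at 5.12, 6.65, 3.88 and 10.1 CPM without. All 4 lines were higher without serum, and the lines lay further apart than the conditions. *IRF7* did not pass (log2 fold change 0.33 ± 0.38, adjusted *P* = 0.570) and passed with the block (adjusted *P* = 0.0267). With the GC correction added its estimate was 0.02 (adjusted *P* = 0.880).

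The receptor genes passed neither with the block nor without it. *IFNAR1* was at 77.8, 81.3, 79.7 and 71.0 CPM with serum and at 77.1, 77.9, 74.6 and 74.6 CPM without. These groups overlapped, with a log2 fold change of -0.03 ± 0.063 that turned to 0.05 with the block and GC correction. *IFNAR2* was at 5.72, 5.52, 5.70 and 6.73 CPM with serum and at 6.35, 6.73, 7.01 and 7.48 CPM without. It was higher without serum in every line, but WT4 with serum lay above WT1 without, and it did not pass (log2 fold change 0.22 ± 0.12, adjusted *P* = 0.220, or 0.112 with the block). With the GC correction added to the block, *IFNAR2* passed (log2 fold change 0.28, adjusted *P* = 0.0462).

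The IFIT genes encode proteins that bind viral RNA and hold back its translation, and lie side by side on chromosome 10. *IFIT1* (chr10:89392623-89406487) was at 2.89, 2.97, 3.36 and 4.44 CPM with serum and at 5.41, 5.90, 7.81 and 6.08 CPM without. *IFIT2* (chr10:89302046-89309271) was at 2.15, 2.57, 3.29 and 2.08 CPM with serum and at 6.28, 5.47, 5.60 and 3.27 CPM without. *IFIT3* (chr10:89327997-89340968) was at 10.97, 11.9, 11.96 and 11.5 CPM with serum and at 19.7, 19.6, 16.7 and 12.2 CPM without. In each of the 3 genes every line was higher without serum and WT4 had the smallest difference. The groups did not overlap for *IFIT1* and *IFIT3*, and for *IFIT2* the WT4 serum-free value lay just under the WT3 serum value.

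*IFIT1* rose by 0.89 ± 0.19 (log2, adjusted *P* = 0.00852) and *IFIT2* by 1.03 ± 0.24 (adjusted *P* = 0.0125), each passing in 10 of the 12 fits without 1 library or line. The call was lost for *IFIT1* without WT2 (adjusted *P* = 0.0524) and without WT3 (0.0697). For *IFIT2* it was lost without WT1 (0.0982) and without WT2 (0.0696). *IFIT3* rose by 0.56 ± 0.15 (adjusted *P* = 0.0221) and passed in 5 of the 12, with adjusted *P* values up to 0.145. It lost the call without WT1, WT2 or WT3 as a whole, without either library of WT1, without the WT3 serum library and without the WT2 serum-free library. *IFIT5*, the other member of the cluster and the highest of the 4 in level, did not pass (log2 fold change -0.10 ± 0.099, or 0.10 with the block and GC correction). It was at 56.0, 46.1, 51.9 and 40.8 CPM with serum and at 47.9, 47.3, 44.5 and 42.8 CPM without, with 2 lines on each side of 0.

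The IFI genes, a looser group named for their induction by interferon, had none that passed without the block. *IFI35* was at 11.8, 11.4, 9.25 and 20.7 CPM with serum and at 16.6, 15.1, 15.8 and 24.2 CPM without, higher in all 4 lines, and it passed with the block (adjusted *P* = 0.000995, against 0.252). Without the WT4 serum library it also passed in the fit without the block, as it did without WT4 as a whole (lowest adjusted *P* of the 12 fits 0.00802). *IFI44* and *IFI6* had log2 fold changes of 0.20 ± 0.29 and 0.18 ± 0.15 and passed neither without the block nor with it. With the GC correction added, *IFI44* passed (adjusted *P* = 0.0101). *IFI6*, a mitochondrial protein that holds back cell death, was at 13.5 CPM in WT4 with serum and between 8.70 and 9.37 CPM in the other 3, and without that library it passed (adjusted *P* = 0.0430). With the block and GC correction its estimate was 0.05 (adjusted *P* = 0.705). *IFI27* had at most 16 counts in a library and *IFI44L* at most 14, so neither was tested.

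**Figure D3:**
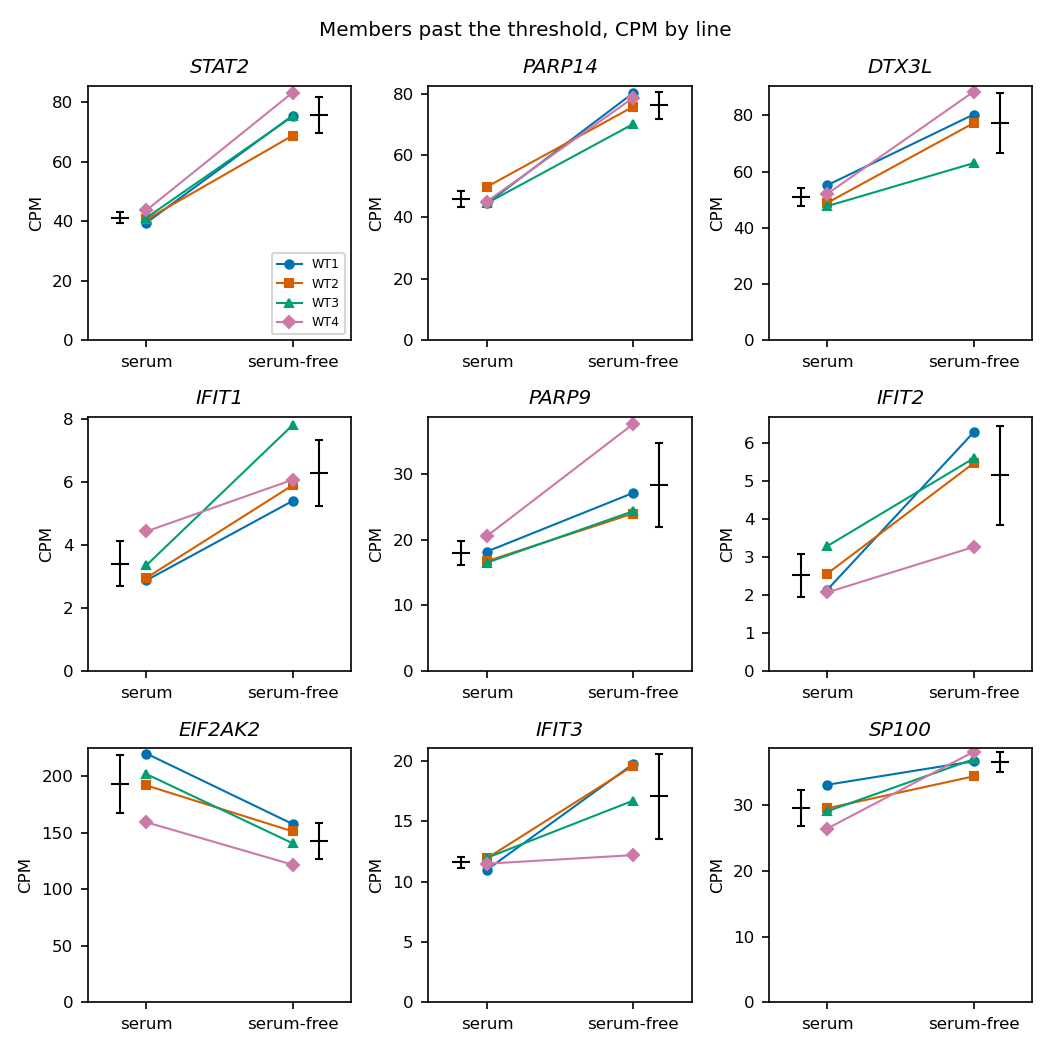
CPM by line for the 9 members with an adjusted *P* under 0.05 without the block. Each colored line joins the serum and serum-free library of 1 cell line, and black bars give mean and SD (n = 4). All 4 lines of *STAT2*, *PARP14* and *DTX3L* rise, *IFIT3* is nearly level in WT4, and *EIF2AK2* falls in all 4.

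*DTX3L* and *PARP9* encode a ubiquitin ligase and the ADP-ribosyltransferase family protein it works with, and *PARP14* a mono-ADP-ribosyltransferase. The 3 genes lie together on chromosome 3, the first 2 head to head. *PARP14* (chr3:122680839-122730840) was at 44.4, 49.8, 44.5 and 45.05 CPM with serum and at 80.2, 75.8, 70.2 and 78.7 CPM without. *DTX3L* (chr3:122564338-122575203) was at 55.2, 49.0, 47.8 and 52.1 CPM with serum and at 80.3, 77.3, 63.0 and 88.4 CPM without. *PARP9* (chr3:122527924-122564784) was at 18.2, 16.7, 16.5 and 20.5 CPM with serum and at 27.1, 24.0, 24.3 and 37.5 CPM without. None of the 3 overlapped between groups, and WT4 had the highest serum-free value of *DTX3L* and *PARP9*.

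*PARP14* rose by 0.73 ± 0.070 (log2, adjusted *P* = 0.000828), *DTX3L* by 0.60 ± 0.10 (adjusted *P* = 0.00374) and *PARP9* by 0.65 ± 0.15 (adjusted *P* = 0.0122). *PARP14* and *DTX3L* passed in all 12 fits that left out a library or line. *PARP9* passed in 10, with an adjusted *P* of up to 0.0686 without WT1 or without WT3.

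ISG15 is a ubiquitin-like protein that is attached to other proteins by the conjugating enzyme UBE2L6 and the ligase HERC5 and removed by USP18. *ISG15* was at 1.72, 2.18, 1.82 and 3.56 CPM with serum and at 2.56, 2.92, 2.90 and 2.91 CPM without. It was higher without serum in 3 lines and lower in WT4, and did not pass (log2 fold change 0.29 ± 0.24, adjusted *P* = 0.406). Without the WT4 serum library it passed (adjusted *P* = 0.0340), and with the block and GC correction its estimate was 0.07 (adjusted *P* = 0.769). *UBE2L6* was at 20.9, 19.5, 18.8 and 26.5 CPM with serum and at 27.1, 24.8, 24.5 and 31.6 CPM without. Every line was higher without serum, WT4 with serum lay above 2 of the serum-free values, and the gene passed with the block (adjusted *P* = 0.00108, against 0.0812). Without the block it passed when the WT4 serum library or WT4 as a whole was left out (adjusted *P* = 0.0101 and 0.00808).

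*HERC5* was at 3.15, 3.87, 2.10 and 9.02 CPM with serum and at 4.10, 4.70, 3.08 and 11.6 CPM without. WT4 stood well above the other lines in both conditions, and the gene passed with the block (adjusted *P* = 0.0193, against 0.651). *HERC6*, a relative of *HERC5*, had a log2 fold change of 0.64 ± 0.22 and *TRIM21*, an antibody receptor in the cytosol with ligase activity, 0.40 ± 0.14. Both were higher without serum in all 4 lines and passed with the block (adjusted *P* = 0.00163 and 0.00993), where the model without it gave 0.0577 and 0.0663. *HERC6* also passed with no block when the WT3 serum-free library was left out (adjusted *P* = 0.0267) or GC content was corrected for (0.0487). *USP18* was at 5.35, 6.35, 6.01 and 6.20 CPM with serum and at 7.18, 7.19, 7.04 and 6.91 CPM without. Its groups did not overlap, yet it passed neither without the block nor with it (adjusted *P* = 0.146 and 0.0859), and passed with the GC correction added (0.0289). *TRIM22* was at 0.719 to 1.19 CPM in all libraries and did not pass.

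Genes for sensing and cutting double-stranded RNA did not move one way. *EIF2AK2*, the kinase PKR that stops translation when it meets double-stranded RNA, was at 219.7, 191.6, 201.6 and 159.1 CPM with serum and at 157.5, 151.0, 140.5 and 121.6 CPM without. The groups lay close but did not overlap, with the lowest value of each group in WT4. *EIF2AK2* (chr2:37099210-37156980) fell by 0.44 on the log2 scale (SE 0.11), with an adjusted *P* of 0.0189, and of 1.8e-05 in the blocked model. With GC correction and the block its fall was smaller, at a log2 fold change of -0.28 (adjusted *P* = 7.2e-05). The call was made in 7 of the 12 fits without a library or line, with adjusted *P* values up to 0.103, and was lost without WT1, WT2 or WT3 as a whole and without the serum library of WT1 or of WT3.

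*ADAR*, which edits adenosines in double-stranded RNA, was at 511.6, 500.7, 507.8 and 502.7 CPM with serum and at 493.3, 458.7, 492.5 and 470.8 CPM without. Every serum-free value lay under every serum value, but the difference was small (log2 fold change -0.08 ± 0.053) and did not pass without the block or with it (adjusted *P* = 0.312 and 0.207). It passed with the block and the GC correction (log2 fold change -0.13, adjusted *P* = 0.0138).

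*IFIH1*, the sensor MDA5, was at 4.35, 3.80, 2.15 and 4.09 CPM with serum and at 6.21, 6.24, 4.78 and 5.58 CPM without. Its groups did not overlap and WT3 was lowest in both. Its log2 fold change of 0.67 ± 0.22 stood at the threshold without passing it (adjusted *P* = 0.05001). With the block the estimate was 0.70 ± 0.14, which passed (adjusted *P* = 0.00103).

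The OAS genes encode enzymes that sense double-stranded RNA and make short adenylate chains, and they split. *OAS1* was at 8.69, 6.63, 5.42 and 13.6 CPM with serum and at 8.18, 5.60, 3.29 and 8.88 CPM without. All 4 lines were lower without serum, with WT3 and WT4 moving most, and it passed with the block (log2 fold change -0.40, adjusted *P* = 0.0153, against 0.463, and 0.0751 with the GC correction added). *OAS2* was at 6.57, 7.12, 7.20 and 4.05 CPM with serum and at 7.97, 9.49, 9.58 and 7.59 CPM without. Its groups did not overlap, and it passed with the block, in the other direction (log2 fold change 0.49, adjusted *P* = 0.00386, against 0.0965). *OAS3* was at 104.3, 100.9, 90.2 and 116.9 CPM with serum and at 96.5, 95.6, 83.0 and 100.2 CPM without. It was lower in every line, overlapped between groups and passed neither without the block nor with it (log2 fold change -0.14 ± 0.091, adjusted *P* = 0.309 and 0.0573). With the block and GC correction it fell by 0.21 (adjusted *P* = 0.000882). *ISG20*, a nuclease that degrades viral RNA, passed with the block (log2 fold change 0.44, adjusted *P* = 0.00117, against 0.347). *OASL* had at most 9 counts in a library and was not tested.

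Of the membrane and other antiviral proteins, *SP100* passed without the block. SP100 is a component of nuclear bodies that silences viral genomes. It was at 33.2, 29.6, 29.1 and 26.5 CPM with serum and at 36.7, 34.4, 37.04 and 38.2 CPM without. The groups did not overlap, and WT4 was lowest with serum and highest without. *SP100* rose by 0.31 ± 0.082 (log2, adjusted *P* = 0.0226) and passed in 4 of the 12 fits without a library or line (adjusted *P* up to 0.121). The call held without the serum library of WT1 or WT4, without the serum-free library of WT2 and without WT4 as a whole, and was lost in the other 8.

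The largest fold changes of the set belonged to genes with few counts. *BST2*, which tethers budding virions to the membrane, was at 0.186, 0.0152, 0.397 and 0.247 CPM with serum and at 0.735, 0.170, 1.002 and 0.604 CPM without. WT2 was lowest in both conditions and WT3 highest, with 1 count in WT2 with serum. Its log2 fold change was 1.71 ± 0.43 with the block, which passed (adjusted *P* = 0.00473), and 1.60 ± 0.75 without it, which did not (0.147). *IFITM1*, which blocks viral entry at the cell surface, was at 0.159, 0.213, 0.187 and 0.599 CPM with serum and at 0.356, 0.353, 0.796 and 1.01 CPM without. It was higher without serum in every line and passed with the block (log2 fold change 1.14, adjusted *P* = 0.0263, against 0.133). It also passed with no block when the WT4 serum library was left out (log2 fold change 1.72, adjusted *P* = 0.0279). Of its exon bases, 31.6% lie in other genes.

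*IFITM2* and *IFITM3*, close paralogs whose shared reads may have been dropped as multi-mapped, had log2 fold changes of 0.04 ± 0.14 and 0.09 ± 0.13. With the block and the GC correction these were -0.12 and -0.09, and they passed in no such fit. *MX2*, a GTPase that restrains viral capsids, was at 85.5, 80.3, 89.8 and 88.5 CPM with serum and at 97.2, 89.2, 96.7 and 96.7 CPM without. The difference was small and of one sign in all 4 lines, and it passed with the block (log2 fold change 0.14, adjusted *P* = 0.0408, against 0.127). Its relative *MX1*, at 4.32 to 6.13 CPM with serum and 5.60 to 7.23 CPM without, passed neither without the block nor with it (adjusted *P* = 0.154 and 0.0706), and passed with the GC correction added (0.0277). *CMPK2*, a mitochondrial nucleotide kinase, and *SAMD9*, which restricts poxviruses, passed with the block, at log2 fold changes of 0.48 and 0.23. *SAMD9* also passed with the GC correction and no block (log2 fold change 0.44, adjusted *P* = 0.0293). *SAMD9L* did not pass with the block alone (adjusted *P* = 0.149), and passed with the block and the GC correction (0.00876). *RSAD2*, the antiviral enzyme viperin, had at most 20 counts in a library and *XAF1* at most 5, and they were not tested.

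The lines themselves were compared next, with a test of the 3 line coefficients in the model with line and condition. Of the 40 members, 15 differed between lines, against 22.9% of all genes. WT4 was the highest line for 10 of the 15 and WT3 the lowest for 11. The highest and lowest lines were not counted over all genes, so this is not shown to be particular to the members. The 8 with the smallest *P* were *HERC5* (adjusted *P* = 3.4e-06), *ISG20* (6.9e-05), *IRF7* (6.9e-05), *CMPK2* (0.000131), *IFI44* (0.00014), *OAS1* (0.000264), *IFI35* (0.000505) and *SAMD9L* (0.00533).

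*HERC5* spanned 1.99 log2 units from WT3 to WT4, against a fitted serum response of 0.38 in the blocked model. *IRF7* spanned 1.44 units, *CMPK2* 1.38, *OAS1* 1.37 and *ISG20* 1.13, each from WT3 to WT4. *ISG20* was at 15.95, 18.8, 12.3 and 29.6 CPM with serum and at 24.8, 20.4, 19.4 and 38.8 CPM without, with WT4 apart in both. *IFI44* differed in another way, with WT2 highest at 15.3 CPM with serum and 19.5 CPM without, and WT3 lowest at 7.95 and 7.65 CPM. *BST2*, which also differed (adjusted *P* = 0.0152), was lowest in WT2. *STAT2*, *PARP14* and *DTX3L*, by contrast, did not pass the line test (adjusted *P* = 0.326, 0.634 and 0.0779).

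**Figure D4:**
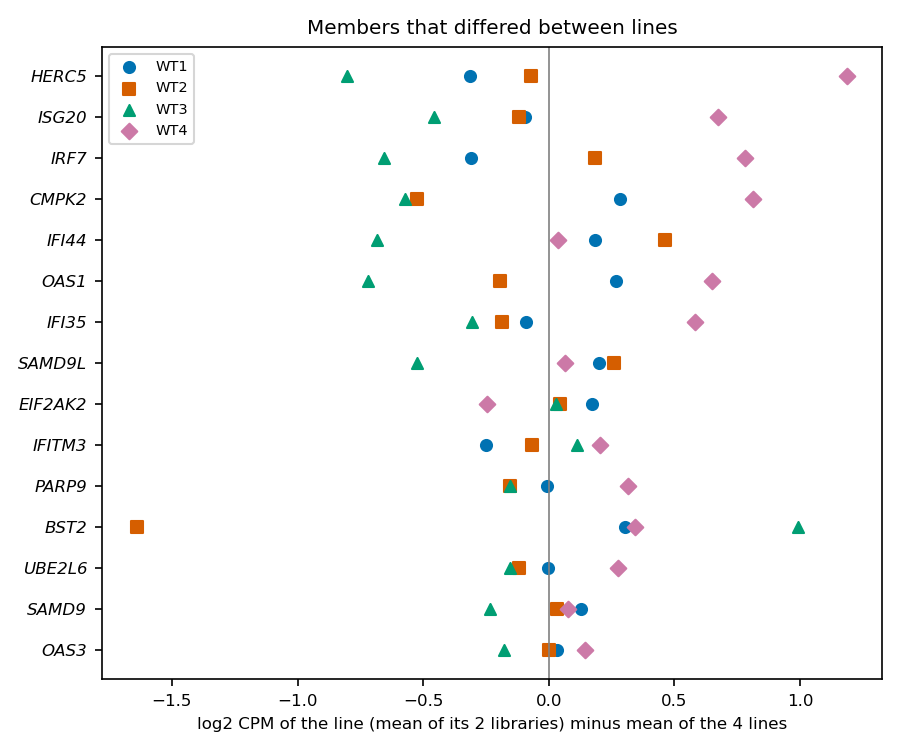
The 15 members that differed between lines, as the mean log2 CPM of each line's 2 libraries minus the mean of the 4 lines. Each symbol is 1 line and genes are ordered by *P*. WT4 lies rightmost for 10 genes, WT3 leftmost for 11, and *BST2* has the widest span at 2.63 units.

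Levels were compared per length of merged exons. With serum, *ADAR* stood at 41.3 ± 0.40 RPKM and *IFITM3* at 39.6 ± 7.10 RPKM (SD, n = 4), a pair that did not differ beyond their spread and that swapped places when the longest transcript was used (69.5 and 108 RPKM). *EIF2AK2* followed at 17.5 ± 2.31 RPKM. *IFIT5* (11.1 ± 1.52), *IFI6* (10.9 ± 2.37) and *UBE2L6* (10.4 ± 1.69 RPKM) came next and overlapped in spread. This order also depended on the length used. By the longest transcript, *MX2* (21.2 RPKM, or 5.91 by merged exons) stood above *EIF2AK2* (19.1). *IFNAR1* (12.6, or 4.94 by merged exons) then stood above *IFIT5* (12.0) and *IFI6* (11.2). At the low end of the tested genes were *IRF9* (0.135) and *TRIM22* (0.0712 RPKM). The median of all genes tested was 2.75 RPKM with serum and 2.93 RPKM without, and 16 of the 40 members lay above it with serum and 21 without. *STAT2* and *PARP14* were above it in both conditions, while *IFIT3* (2.29 and 3.36 RPKM) and *PARP9* (2.01 and 3.16 RPKM) crossed it. *IFIT1* stayed under it, at 0.74 and 1.37 RPKM.

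The other genes of the pathway were taken from lists. Of 21 interferon genes, which encode the ligands, 11 had 0 counts in all 8 libraries, which at 3 counts allows at most 0.0393 to 0.106 CPM by counting error alone. Reads shared by several of these genes may have been dropped as multi-mapped, which this bound does not cover. Of the other 10 interferon genes, *IFNE* had 4, 7, 7 and 6 counts with serum and 11, 10, 9 and 33 without, with the highest count in WT4, and no other had more than 4 in a library. *IFNB1*, the first interferon made in most cell types, had 1 count in all. None could be tested.

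Of 16 tested receptor, kinase and factor genes outside the 45, 4 rose and 12 did not pass with edgeR, where 11.1% of all genes rose. With the block 12 rose, where 23.2% of all genes did. The 4 were *STAT5B* (log2 fold change 0.57), *STAT5A* (0.52), *STAT6* (0.42, or 0.27 with the block and GC correction) and *IL10RB* (0.40). *STAT5B* was at 26.2, 25.9, 29.8 and 28.1 CPM with serum and at 40.5, 41.1, 40.3 and 41.1 CPM without, groups that did not overlap. These STAT proteins carry cytokine signals other than type I interferon for the most part.

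Of 14 tested genes for sensing nucleic acids upstream of interferon, 6 rose and 1 fell, where 11.1% of all genes rose and 14% fell. *DHX58*, the sensor LGP2 and a target of interferon itself, was at 1.64, 1.95, 1.47 and 2.78 CPM with serum and at 4.20, 5.09, 4.01 and 5.40 CPM without. The groups did not overlap, and its log2 fold change of 1.26 ± 0.22 (adjusted *P* = 0.00432) was larger than that of any of the 9 members called in the same fit. *IKBKE* (0.63), *STING1* (0.57) and *MAVS* (0.43) were among the others that rose. The gene that fell was *TBK1* (by 0.29, adjusted *P* = 0.0367), named after its values were seen, and with GC correction it did not pass (log2 fold change -0.08, adjusted *P* = 0.303). *STING1* did not pass with GC correction and no block either (adjusted *P* = 0.162). With the block 6 of the 14 rose and 3 fell, against 23.2% and 22.4% of all genes. Of 13 tested negative regulators, *PIAS3* rose (0.41) and *PTPN11* fell (by 0.35), and the list's median was 0.01. The 1 gene in each direction compares with 11.1% and 14% of all genes. With the block 2 of this list rose and 3 fell, against 23.2% and 22.4% of all genes.

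Of 31 tested interferon-stimulated genes outside the 45, 4 rose, 3 fell and 24 did not pass, against 11.1% and 14% of all genes, with a median log2 fold change of 0.26. With the block 12 rose and 4 fell, against 23.2% and 22.4% of all genes. *RNF213* (0.38), *SHFL* (0.59), *HELZ2* (0.77, or 0.47 with the block and GC correction) and *TDRD7* (0.44) rose. *PNPT1*, a mitochondrial RNA nuclease, fell by 0.74 (log2, adjusted *P* = 0.00589). *PNPT1* was at 147.5, 132.0, 144.6 and 96.9 CPM with serum and at 80.5, 83.5, 84.9 and 64.3 CPM without. As with *EIF2AK2*, its groups did not overlap and WT4 was lowest in both.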

How the data were processed

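RNA of 8 A375 libraries was depleted of ribosomal RNA and sequenced as paired reads by the authors. The deposited values were raw read counts per Ensembl gene from HTSeq. Per the labels' processing notes, reads had been trimmed with cutadapt and aligned with TopHat2 2.0.11 to GRCh38. The annotation release, counting mode and strand setting are not given in the sources used here, so reads of overlapping or antisense genes may be shared or dropped. The study's methods name another build and FPKM values, which were not used.

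Genes were tested with edgeR 4.0.16 (R 4.3.3, limma 3.58.1), with the default filter on low counts, TMM scaling and the robust quasi-likelihood *F* test of condition, and Benjamini-Hochberg adjustment over 17671 genes at 0.05. Samples were grouped by their titles. Named genes were the 45 members, up to 5 genes per other list with the smallest *P* among those past the threshold, and the 8 members with the smallest *P* in the line test, with 1 item of the other lists not reported here. The members and lists were chosen with earlier results of these data known, by gene symbol and with no threshold on values. CPM values use TMM-scaled library sizes, and single-line log2 differences a prior count of 2. RPKM used exon lengths of another build's annotation. Libraries with the same line number came from the same line, and their deviations from the group means correlated at 0.40, 0.59, 0.46 and 0.60 (highest of different lines 0.13), so the replicate block is given where it changed a member's call or a list's count. Promoter sequences are from RefSeq (GRCh38.p14). On simulated counts with 200 changed genes, the test of condition recovered 84.5% without the block and 96.5% with it. Of the calls, 0% and 3.02% were genes that had not been changed. The raised genes had median estimates of 0.99 and 0.98 log2 units, against 0.32 for the members, so recovery of smaller changes was not tested. DESeq2 1.42.0, other scalings and filters, a correction for GC content, and leaving out libraries or lines were the alternatives. Fits with the GC correction and no block, without WT1 and WT2, and with the block and a line left out were added after seeing the data.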

Additional observations from a re-analysis of the deposited data

Results flagged for a closer look

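Among 120 groups of 4 values (CPM with serum, CPM without serum and log2 difference of the 40 tested members), 9 held a library or line whose gap to its nearest neighbor passed Dixon's 95% critical ratio for 4 values. Chance alone passes about 1 in 20 groups, or 6 of 120. WT4 was the one apart in 5 of the 9. Which line stood apart was not counted over all genes. With serum it had 6.73 CPM of *IFNAR2* (others 5.52 to 5.72), 13.5 CPM of *IFI6* (others 8.70 to 9.37) and 0.599 CPM of *IFITM1* (others 0.159 to 0.213). Without serum it had 24.2 CPM of *IFI35* (others 15.1 to 16.6), and its log2 difference of *PARP9* was 0.87 (others 0.52 to 0.57). *PARP14* was at 49.8 CPM in WT2 with serum (others 44.4 to 45.05) and *SAMD9* at 36.7 CPM in WT3 with serum (others 44.5 to 45.9). Without serum, *ISG15* was at 2.56 CPM in WT1 (others 2.90 to 2.92) and *MX2* at 89.2 CPM in WT2 (others 96.7 to 97.2). The cause was not tested.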

How the results depend on the processing

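None of the 9 members called without the block turned its sign in the settings run. Uncalled estimates did: those of *IFNAR1*, *IFIT5*, *IFITM2* and *IFITM3* with GC correction, with the block and without it, that of *IFNAR1* also with upper-quartile scaling, and those of *IFITM2*, *HERC5*, *IFI44*, *IRF9* and *TRIM22* with a library or line left out. The count of members that rose without serum was 8. It was 23 with the replicate block, 26 with the replicate block and GC correction, 13 with upper-quartile scaling, and 4 to 14 when 1 library or line was left out (4 without WT1, WT2 or WT3, 14 without the WT4 serum library). Of all genes, 620 of 18104 rose without WT1, 800 of 17464 without WT2 and 705 of 18050 without WT3. Without the WT4 serum library, 2849 of 18281 did. The members' count was 0 without WT1 and WT2, where 13 of 17743 genes rose. With the block it was 18, 20, 18 and 27 without WT1 to WT4, where 3107, 3200, 2979 and 4479 of all genes rose. The count of members that fell was 1. It was 2 with the replicate block, 3 with the block and GC correction, 0 to 1 with a library or line left out, 0 without WT1 and WT2, and 2 with the block without WT1, WT2 or WT4. Of all genes, 969 to 3279 fell with a library or line left out. With the block, 3078, 3285, 3218 and 4459 fell without WT1 to WT4. The median log2 fold change of 0.32 was 0.39 with upper-quartile scaling and 0.24 to 0.38 with a library or line left out. The median of all genes moved by less than 0.1 between scalings. DESeq2 called 11 members higher and 1 lower, where 2355 and 2959 of 17671 genes were called. RLE scaling called 8 and 1 (1871 and 2557 of all genes), and GC correction alone 11 and 1 (1836 and 2926). With no filter the member counts were 10 and 1 (1675 and 2229 of 34455 genes). With at least 10 counts in every library they were 10 and 1 (2093 and 2363 of 15193 genes). Members that passed only in some of the other unblocked fits were *IFIH1*, *HERC6*, *TRIM21*, *UBE2L6*, *MX2* and *SAMD9* by tool, scaling, filter or GC correction, and *IFI6*, *IFI35*, *IFIH1*, *ISG15*, *UBE2L6*, *HERC6*, *IFITM1* and *MX1* with a library or line left out. Between 10 and 15 members differed between lines in every setting tried for that test. Apart from the members named above, the block changed no call. WT1 and WT2 carry both serum libraries rich in multi-mapped reads, so that share and the number of lines left cannot be told apart. Low counts of *BST2*, *IFITM1*, *IRF9* and *TRIM22* limit their precision.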
